A study of Mus musculus with 10 samples.

Results

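The annexins and the S100 proteins are 2 families of calcium-binding proteins, and 10 of their genes were followed here through the hippocampus of mice after status epilepticus (SE). They are 6 annexin genes, *Anxa1*, *Anxa2*, *Anxa3*, *Anxa4*, *Anxa5* and *Anxa7*, and 4 S100 genes, *S100a1*, *S100a4*, *S100a6* and *S100a11*. They were chosen by symbol, with earlier results of these data known. All 10 were found among the 15900 genes of the expression table and passed the filter on low values. Expression was measured by cap analysis of gene expression (CAGE), which reads the capped 5′ end of each RNA, so that 1 tag stands for 1 start of transcription. Values are CPM, the tags of a gene scaled to the total of its library, and as an RNA gives 1 tag whatever its length, levels of different genes can be set side by side.

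RNA came from the whole hippocampus of 10 male ICR mice, 9 to 10 weeks old at SE, 2 per group. Pre-SE mice were given no pilocarpine (PILO) and no levetiracetam (LEV), and the study's methods describe saline for its control mice. Mice of the other 4 groups were given methyl scopolamine at 1 mg/kg and PILO, a muscarinic agonist that provokes seizures, at 290 mg/kg, and SE was defined by 5 generalized convulsive seizures. All 4 groups were then given diazepam at 10 mg/kg to end SE, so that the comparisons with pre-SE mice hold SE and these agents together. SE 6 h and SE 2 days mice were sampled at those times without LEV. SE + LEV 6 h mice were given the antiepileptic drug LEV orally at 360 mg/kg 1 time, and SE + LEV 2 days mice 5 times. The replicate mice were separate animals.

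Annexins bind phospholipid membranes when calcium is present and take part in membrane repair, vesicle traffic and the control of inflammation. S100 proteins are small EF-hand proteins that change shape on binding calcium and then dock onto partners, several of which are annexins. *Anxa2* pairs with *S100a10*, *Anxa1* with *S100a11*, and *S100a6* binds *Anxa11*. In the brain several of these genes are known as markers of reactive glia, blood vessels and infiltrating leukocytes, and *S100a1* is known from neurons and glia.

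All 4 S100 genes lie on mouse chromosome 3, here given in the mm9 build used by the deposited data. *S100a1* (90314956 to 90318314, minus strand) comes first and *S100a4* (90407692 to 90409967, plus strand) and *S100a6* (90416816 to 90418336, plus strand) follow, with 6.85 kb between the latter pair. *S100a11* (93324410 to 93330209, plus strand) lies in a second block 2820 kb beyond *S100a9*, and is followed after 28.8 kb by *S100a10*. Each of the 4 genes has 3 exons in the annotation. The annexins are scattered. *Anxa5* is on chromosome 3 (36347847 to 36374765, minus strand), *Anxa4* on chromosome 6 (86686834 to 86743578, minus strand), *Anxa2* on chromosome 9 (69301427 to 69339602, plus strand) and *Anxa1* on chromosome 19 (20447918 to 20465434, minus strand). *Anxa3* is on chromosome 5 (97222404 to 97274987, plus strand) and *Anxa7* on chromosome 14 (21274483 to 21299355, minus strand). The annexins have 13 to 16 exons. *Anxa2* overlaps *Gm16144* on the opposite strand and the microRNA gene *CT009708.1* on its own strand, neither of them a row of the table, and the other 9 genes overlap no annotated gene.

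As CAGE reads the starts of transcripts, promoter sequences are shown for 5 genes that differed from pre-SE mice at 2 days. They run from 250 bases before to 50 after the gene's start in the direction of transcription, were taken from the RefSeq table of GRCm38.p6, and were each found exactly once in mm9, at the positions given. Capitals mark the motifs that were searched on both strands, which were AP-1 (TGANTCA), CRE (TGACGTCA), NF-kappaB, STAT (TTCNNNGAA), SP1 (GGGCGG), the TATA box (TATAAA) and the CArG box of serum response factor. AP-1 is the motif of Fos and Jun proteins, and *S100a11* and *Anxa2* are shown as the genes that held it. *Anxa4* is shown as the gene that held the NF-kappaB motif, by the entry that held it. *S100a4* and *S100a6* are shown for their large increases, as neighbours among the S100 genes in the table.
*S100a11*, chr3:93324168-93324467, plus strand: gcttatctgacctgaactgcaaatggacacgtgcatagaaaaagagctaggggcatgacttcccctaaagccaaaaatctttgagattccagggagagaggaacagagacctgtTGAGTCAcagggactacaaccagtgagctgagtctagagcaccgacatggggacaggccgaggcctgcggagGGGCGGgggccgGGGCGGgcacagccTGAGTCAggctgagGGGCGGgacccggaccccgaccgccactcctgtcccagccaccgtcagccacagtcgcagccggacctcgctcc
*Anxa2*, chr9:69301240-69301539, plus strand: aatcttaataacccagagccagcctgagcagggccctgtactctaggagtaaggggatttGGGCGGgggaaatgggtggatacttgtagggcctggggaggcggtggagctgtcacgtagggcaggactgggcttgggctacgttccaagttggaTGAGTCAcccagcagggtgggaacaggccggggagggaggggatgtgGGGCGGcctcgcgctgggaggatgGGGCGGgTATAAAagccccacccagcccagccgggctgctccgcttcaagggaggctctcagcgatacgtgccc
*Anxa4*, chr6:86743529-86743828, minus strand: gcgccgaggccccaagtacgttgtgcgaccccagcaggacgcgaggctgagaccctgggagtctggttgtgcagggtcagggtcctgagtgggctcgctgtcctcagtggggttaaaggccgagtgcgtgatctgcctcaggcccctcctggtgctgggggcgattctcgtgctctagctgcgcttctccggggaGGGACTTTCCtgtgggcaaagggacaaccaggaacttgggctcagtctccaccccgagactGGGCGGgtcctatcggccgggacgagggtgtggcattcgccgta
*S100a4*, chr3:90407442-90407741, plus strand: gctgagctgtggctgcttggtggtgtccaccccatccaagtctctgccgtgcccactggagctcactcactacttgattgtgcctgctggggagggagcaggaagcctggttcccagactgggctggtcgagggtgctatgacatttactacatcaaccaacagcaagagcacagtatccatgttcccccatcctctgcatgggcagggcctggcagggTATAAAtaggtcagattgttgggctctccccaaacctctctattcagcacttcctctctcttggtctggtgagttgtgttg
*S100a6*, chr3:90416566-90416865, plus strand: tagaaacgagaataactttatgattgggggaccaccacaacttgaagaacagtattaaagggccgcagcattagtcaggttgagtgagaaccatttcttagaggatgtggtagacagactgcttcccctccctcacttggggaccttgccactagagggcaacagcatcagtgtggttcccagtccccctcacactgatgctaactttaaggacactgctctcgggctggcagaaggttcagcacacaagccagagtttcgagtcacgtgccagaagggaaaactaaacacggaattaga

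The *S100a11* promoter held the AP-1 motif at positions −136 and −38 from the start and the SP1 motif at 3 places, and the *Anxa2* promoter held AP-1 at −95, SP1 at 3 places and a TATA box at −17. The *Anxa4* promoter shown held the NF-kappaB motif at −55 and SP1 at 6. Another *Anxa4* entry, at chr6:86725059-86725358, held none of the motifs and is not shown. From which of these starts the *Anxa4* tags came was not tested. The *S100a4* promoter held a TATA box at −31, and none of these letters were found in the window of *S100a6*. A gene was counted if any of its entries held a motif, and *Anxa4* and *Anxa7* had more than 1 entry. Of the 9 genes with an entry, 2 held AP-1, 1 held NF-kappaB, 4 held SP1, 3 held a TATA box and 1 held a CArG box, and 0 held CRE or STAT. Of all 32851 promoters of this length, counted by promoter and not by gene, 7.81% held AP-1, 0.411% NF-kappaB, 35.7% SP1, 13.6% the TATA box, 1.63% the CArG box, 1.79% CRE and 8.3% STAT. A match is a description of letters and does not show binding.

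The libraries held 10540698 to 51710968 tags on the listed genes, a ratio of 4.91, so that 3 tags were worth 0.058 to 0.285 CPM. All 5 markers of hippocampal neurons were present, with a summed level of 409.3 to 596.5 CPM in every library. Markers of the choroid plexus (3 of 5 in the table) differed widely between the mice of a group. Their summed level was 6.4 and 1687.6 CPM in pre-SE mice and 5.1 and 4001.0 CPM in SE 6 h mice. It was 858.8 and 33.8 CPM in SE + LEV 6 h mice and 1489.6 and 20.6 CPM in SE + LEV 2 days mice, and at most 58.4 CPM in SE 2 days mice. The part of this tissue in the comparisons was not tested. The differences below are logFC values on the log2(CPM + 0.1) scale, tested with limma over 15851 genes, each given ± its standard error, and a gene with an adjusted p of at most 0.05 was called. The added 0.1 CPM makes the logFC of genes with low CPM smaller. A single low value can still make it larger, as for *S100a11*, whose logFC at 2 days was 4.81 with all mice and 3.54 without pre-SE replicate 1.

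At 6 h after SE, *Anxa2* was the only member called, where 2.76% of all genes tested were called higher. Both SE mice lay above both pre-SE mice in 6 of the 10 members, *Anxa2* among them, where 18.6% of all genes tested did so. At 2 days, 8 of the 10 genes were called higher, where 5.07% of all genes tested were. The largest logFC values were those of *S100a4*, *S100a11*, *S100a6* and *Anxa2*, and *S100a11* had only 1 tag in pre-SE replicate 1. *Anxa7* and *S100a1* did not pass the test. With LEV, 0 of the 10 were called against untreated SE mice at either time. By the same test, 0.0126% of all genes were called lower and 0.0% higher at 6 h, and 0.0% each way at 2 days. *S100a4* and *S100a6* were called against pre-SE mice at 2 days with LEV as well as without it. These patterns are given gene by gene below and are drawn by mouse in the plot of CPM values.

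**Figure D1:**
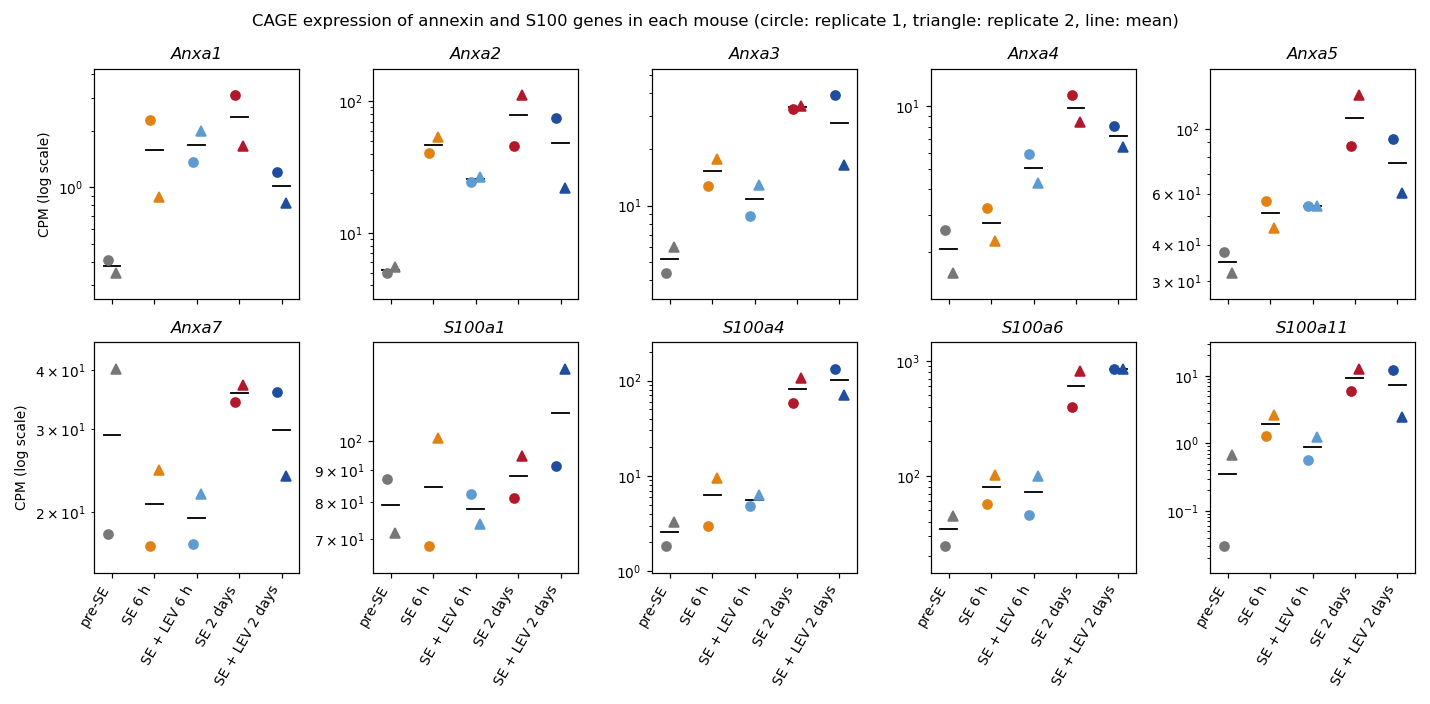
CPM of each gene (log axis, one panel per gene) in each mouse of the 5 groups on the horizontal axis; circles are replicate 1, triangles replicate 2 and lines the mean of the 2 mice. *S100a4* and *S100a6* are higher in all 4 mice at 2 days than in any mouse before SE or at 6 h. Both SE 6 h mice lie above both pre-SE mice for *Anxa1*, *Anxa2*, *Anxa3*, *Anxa5*, *S100a6* and *S100a11*, by most for *Anxa2*. *Anxa7* and *S100a1* show no such steps.

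*Anxa2* encodes a membrane-binding protein that, as a heterotetramer with *S100a10*, binds plasminogen and its activator on the cell surface. Pre-SE mice had 5 and 5.53 CPM, SE 6 h mice had 40.22 and 53.44, and SE 2 days mice had 45.88 and 111.48. Every mouse after SE was well above both pre-SE mice, and the mice at 6 h and 2 days overlapped. At 6 h the logFC was 3.12 (± 0.54, limma adjusted p = 0.014), a ratio of mean CPM of 8.89, and at 2 days it was 3.74 (± 0.54, limma adjusted p = 0.0036), a ratio of 14.9. Between 6 h and 2 days the logFC was 0.62 (95% interval −0.57 to 1.82, limma adjusted p = 0.55). *Anxa2* was the only gene of the 10 called at 6 h, where 2.76% of all genes tested were called higher. Without any 1 of the 4 mice compared, this call was lost (limma adjusted p up to 0.13), with a logFC that stayed between 2.91 and 3.32, and without either SE + LEV 2 days mouse *Anxa3* was called too.

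*S100a10*, the partner of *Anxa2* and not itself among the 10, started from 24.24 and 31.48 CPM before SE, was measured at 40.16 and 39.74 CPM after 6 h, and reached 178.29 and 384.39 CPM after 2 days. The 6 h mice were slightly above pre-SE mice and the 2 days mice far above both. Its logFC against pre-SE mice was 0.53 at 6 h (± 0.52, limma adjusted p = 0.63) and 3.24 at 2 days (± 0.52, limma adjusted p = 0.0056), and it was 2.71 from 6 h to 2 days (limma adjusted p = 0.019). *Ahnak*, a giant scaffold protein that binds the complex of this pair, had a logFC of 1.99 at 6 h (limma adjusted p = 0.089) and 2.61 at 2 days (limma adjusted p = 0.02). *Plat*, the tissue plasminogen activator, rose at 6 h (logFC 2.07, limma adjusted p = 0.0044), from 21.38 and 14.29 CPM to 76.18 and 71.81 CPM. It then fell from 6 h to 2 days by 1.2 (limma adjusted p = 0.038).

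*Anxa1* encodes the glucocorticoid-induced protein that restrains leukocyte entry through formyl peptide receptors. It was the lowest annexin, at 0.41 and 0.35 CPM (12 and 18 tags) in pre-SE mice. After 6 h the mice had 2.28 and 0.89 CPM, and after 2 days they had 3.1 and 1.67, so all mice after SE were above pre-SE mice but the mates differed 2.56-fold at 6 h. The logFC was 1.68 at 6 h (± 0.52, limma adjusted p = 0.13) and 2.31 at 2 days (± 0.52, limma adjusted p = 0.028). The call at 2 days was lost without any 1 of the 4 mice compared, with an adjusted p of up to 0.13. The receptors *Fpr1* and *Fpr2* were not analysed here.

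*Anxa3*, whose product is known in microglia and in phagocytes, had levels of 4.38 and 5.99 CPM before SE, of 12.8 and 17.75 CPM at 6 h and of 32.82 and 34.15 CPM at 2 days. The 3 groups did not overlap and stood in the order of time. The logFC was 1.54 at 6 h (± 0.41, limma adjusted p = 0.083), which was not called, and 2.68 at 2 days (± 0.41, limma adjusted p = 0.0045). Without SE 2 days replicate 2 the adjusted p at 2 days was 0.051, just past the threshold.

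*Anxa4*, an annexin of epithelia and secretory cells that aggregates membranes, was late to move. Pre-SE mice (2.55 and 1.59 CPM) and SE 6 h mice (3.27 and 2.26 CPM) overlapped, and SE 2 days mice stood above them at 11.32 and 8.45 CPM. The logFC was 0.41 at 6 h (± 0.38, limma adjusted p = 0.61), 2.22 at 2 days (± 0.38, limma adjusted p = 0.0079) and 1.81 from 6 h to 2 days (± 0.38, limma adjusted p = 0.029). Without pre-SE replicate 2 the call at 2 days was lost (limma adjusted p = 0.068), and the call from 6 h to 2 days was lost without any 1 of the 4 mice compared (limma adjusted p up to 0.17). *Anxa5*, the phosphatidylserine-binding protein used to stain dying cells, was the most abundant annexin by CPM among the 6 at 2 days. It went from 37.63 and 31.97 CPM before SE to 56.74 and 45.77 CPM at 6 h and 87.3 and 131.06 CPM at 2 days, with no overlap between the 3 groups. The logFC was 0.55 at 6 h (± 0.28, limma adjusted p = 0.34) and 1.62 at 2 days (± 0.28, limma adjusted p = 0.0084), a call that was lost without pre-SE replicate 2 (limma adjusted p = 0.062) or SE 2 days replicate 2 (limma adjusted p = 0.1). *Anxa7*, a widely expressed annexin of vesicle fusion, had 18 and 40.26 CPM before SE, a range that overlapped the SE 6 h mice (16.97 and 24.6) and took in both SE 2 days mice (34.17 and 37.21). Its logFC was −0.4 at 6 h (95% interval −1.25 to 0.46) and 0.4 at 2 days (95% interval −0.45 to 1.26).

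*S100a4* encodes a protein that binds non-muscle myosin and is known from migrating cells, fibroblasts and leukocytes. Before SE the mice had 1.83 and 3.27 CPM, after 6 h 2.95 and 9.52 CPM, and after 2 days 57.71 and 107.37 CPM. The groups at 6 h and before SE overlapped, and both mice at 2 days were far above all of them. The logFC was 1.09 at 6 h (± 0.56, limma adjusted p = 0.34) and 4.95 at 2 days (± 0.56, limma adjusted p = 0.0014), a ratio of mean CPM of 32.4 that placed it 66th of all genes tested by logFC. From 6 h to 2 days it rose by a logFC of 3.86 (± 0.56, limma adjusted p = 0.0061). *Myh9*, a heavy chain of non-muscle myosin, rose at 6 h (logFC 1.31, limma adjusted p = 0.023) and was also called at 2 days (logFC 1.46, limma adjusted p = 0.0085). The higher *S100a4* value at 6 h was in replicate 2, the library with 4001.0 CPM of choroid plexus markers against 5.1 CPM in its mate, and the part of that tissue in the value was not tested.

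*S100a6*, calcyclin, is known from astrocytes and some neurons and binds *Anxa11* and *Cacybp*. It became the most abundant of the 10, going from 24.49 and 45.12 CPM before SE through 57.09 and 102.3 CPM at 6 h to 397.92 and 815.35 CPM at 2 days. The 3 groups did not overlap, although the mates differed by a logFC of 0.84 to 1.03 in each. The logFC was 1.2 at 6 h (± 0.47, limma adjusted p = 0.22), 4.09 at 2 days (± 0.47, limma adjusted p = 0.0014) and 2.9 from 6 h to 2 days (± 0.47, limma adjusted p = 0.0091). Of its partners, *Anxa11* had a logFC of 0.85 at 2 days (± 0.24, limma adjusted p = 0.072) and *Cacybp* of 0.38 (± 0.34, limma adjusted p = 0.6).

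*S100a11*, the partner of *Anxa1*, had 0.03 and 0.66 CPM before SE, and the lower value was a single tag, below the limit of 3 tags. The level was 1.28 and 2.6 CPM after 6 h and 5.94 and 12.8 CPM after 2 days, so that the 3 groups did not overlap. The logFC was 2.62 at 6 h (± 0.92, limma adjusted p = 0.18) and 4.81 at 2 days (± 0.92, limma adjusted p = 0.013), with the largest standard error of the 10. Without pre-SE replicate 1, which held the single tag, the logFC at 2 days was 3.54 and the limma adjusted p 0.097, and without SE 2 days replicate 2 they were 4.26 and 0.15, so that the call was lost in both cases. *S100a1*, a regulator of calcium handling in muscle and neurons, had 87.01 and 71.4 CPM before SE, 68.16 and 101 CPM at 6 h and 81.24 and 94.81 CPM at 2 days, and these groups overlapped. Its logFC was 0.07 at 6 h (95% interval −0.52 to 0.66) and 0.15 at 2 days (95% interval −0.44 to 0.74).

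**Figure D2:**
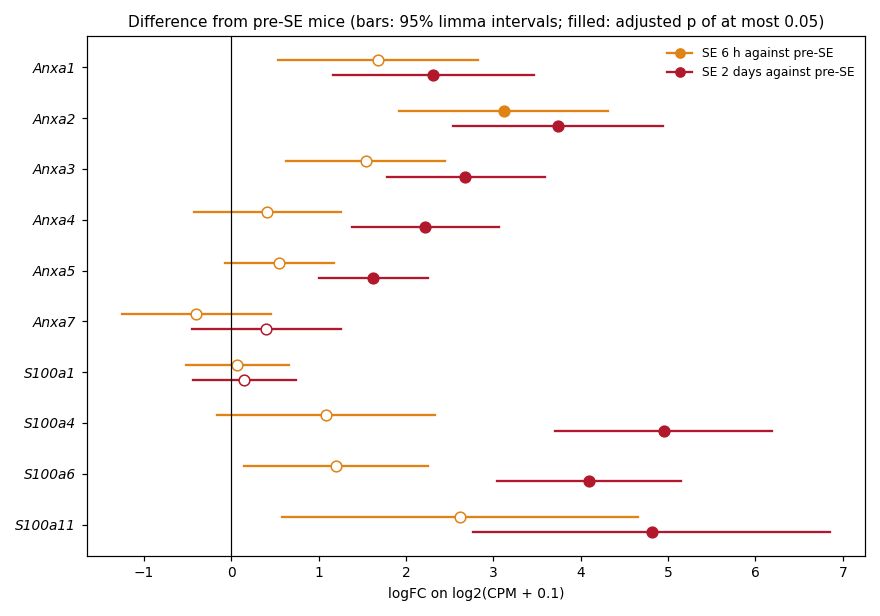
logFC of SE 6 h mice (orange) and SE 2 days mice (red) against pre-SE mice for the 10 genes; bars are 95% limma intervals and filled points were called. At 6 h only *Anxa2*, at 3.12, is filled, and at 2 days 8 genes are filled, from 1.62 for *Anxa5* to 4.95 for *S100a4*.

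As the 10 genes were chosen with earlier results of these data known, their counts do not stand for the families as a whole. Of the 10 genes, 8 were called higher at 2 days, where 5.07% of all genes tested were called higher. Lower calls numbered 0 of the 10, where 0.593% of all genes were called lower. The median logFC of the 10 was 1.14 at 6 h and 2.5 at 2 days, beside medians of −0.13 and −0.03 over all genes. The SE pair lay wholly above the pre-SE pair in 6 genes at 6 h (18.6% of all genes tested) and in 8 at 2 days (26.3%). For the S100 genes alone these medians were 1.14 and 4.45, and for the annexins 1.04 and 2.26. Rescaling of libraries by the median of ratios, which moved the median of all genes at 6 h to −0.005, left 1 and 8 genes called. Some of the calls at 2 days were lost without SE 2 days replicate 2 or without pre-SE replicate 2, fits in which fewer of all genes were called higher too. Without SE 2 days replicate 2 the logFC was 1.33 for *Anxa5* and 4.26 for *S100a11*. *S100a4*, *S100a6* and *Anxa2* were called at 2 days under all 19 alternatives run.

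From 6 h to 2 days, all 10 estimates were above 0, where 55.7% of all genes tested were, with a median logFC of 1.11 beside 0.09 over all genes. Both mice were higher in 7 of the 10 genes, where this held for 31.0% of all genes tested. The test called 3 of them, *S100a4*, *S100a6* and *Anxa4*, where 3.14% of all genes were called higher. Without SE 2 days replicate 2 these calls were lost, with logFC values of 3.42 for *S100a4*, 2.38 for *S100a6* and 2.02 for *Anxa4*. Without SE 6 h replicate 1 those of *S100a6* (logFC 2.48) and *Anxa4* (logFC 2.07) were lost. In both fits fewer of all genes were called higher too.

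Among other members of the families, 8 of 18 listed genes were in the table. Against pre-SE mice, 0 of them were called at 6 h, where 2.76% of all genes tested were called higher. At an unadjusted limma p under 0.05, 2 lay on the higher and 1 on the lower side at 6 h, where 9.21% and 8.51% of all genes lay. At 2 days 1, *S100a10*, was called higher, where 5.07% of all genes were. The median logFC of these 8 genes was 0.3 at 6 h and 0.88 at 2 days, beside 1.14 and 2.5 for the 10 members. *S100b*, the classical astrocyte marker, had a logFC of −0.22 at 2 days (standard error 0.29), and *S100a13* and *S100a16*, which lie between *S100a1* and *S100a4*, had 0.76 and 1.04 (limma adjusted p = 0.2 and 0.16). *S100a8* and *S100a9*, the calprotectin subunits of neutrophils, had their higher estimates at 6 h, at 1.89 and 1.83 (limma adjusted p = 0.19 and 0.16), beside 1.26 and 0.92 at 2 days. In the order of those S100 genes of chromosome 3 that are in the table, the called genes at 2 days were next to each other. They were *S100a4* with *S100a6* and *S100a11* with *S100a10*. S100 genes that the table lacks, *S100a5* among them, have no place in this order. Of the binding partners, receptors and targets, 10 of 14 were in the table. At 6 h 2 of them were called higher (*Plat* and *Myh9*) and at 2 days 3, where 2.76% and 5.07% of all genes were. The 3 were *Ahnak*, *Myh9* and *Tlr4*, the receptor of S100a8/a9, which had a logFC of 2.42 (limma adjusted p = 0.011).

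**Figure D3:**
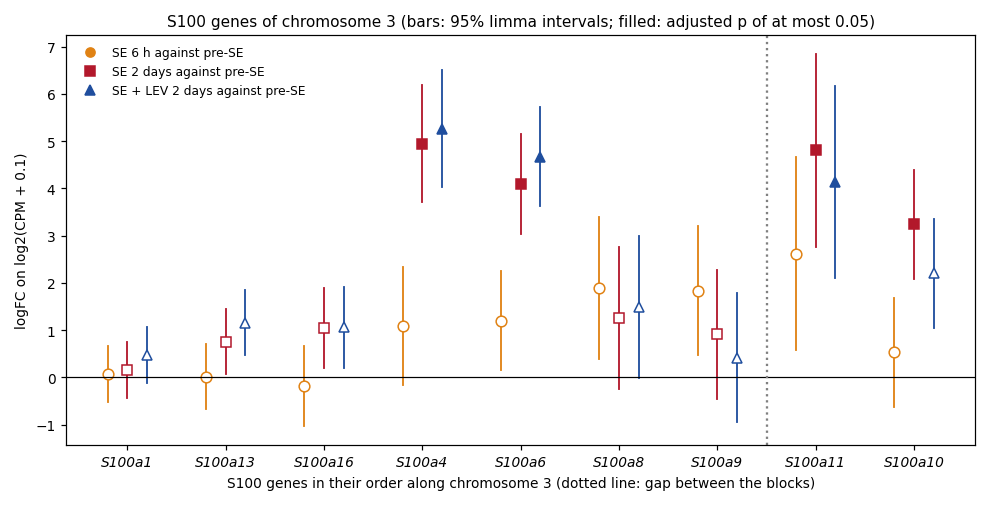
logFC against pre-SE mice of the 9 S100 genes of chromosome 3 that are in the table, in their order along it. The mice are those of SE 6 h, SE 2 days and SE + LEV 2 days. Bars are 95% limma intervals, filled points were called and distances are not to scale. The filled points are those of *S100a4*, *S100a6*, *S100a11* and, without LEV, *S100a10*, and at 6 h none is filled.

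Markers of several cell types also differed between these groups. In whole tissue, a change in the number of cells of a type and a change in RNA per cell cannot be told apart. The 6 microglial markers summed to 362.5 and 430.9 CPM before SE, 284.8 and 264.5 CPM at 6 h and 844.4 and 995.6 CPM at 2 days, and 2 of the 6 were called higher at 2 days. The 6 astrocyte markers summed to 2437.3 and 2296.6 CPM before SE and 3512.3 and 4936.2 CPM at 2 days, also with 2 called higher. Most of that sum at 2 days was *Gfap*, the intermediate filament of reactive astrocytes, with 245.62 and 230.22 CPM before SE and 2281.84 and 3642.11 CPM at 2 days. The glutamate transporter genes *Slc1a2* and *Slc1a3* and the connexin gene *Gja1* of the same list were lower in both mice at 2 days than in both before SE, and the median logFC of the list was 0.23. Oligodendrocyte markers went the other way, from 4653.2 and 5116.2 CPM before SE to 1667.7 and 2574.9 CPM at 2 days (median logFC −1.17), and neuron markers from 9661.6 and 8382.8 CPM to 5567.9 and 4550.4 CPM (median logFC −0.64). At 6 h, when *Anxa2* had risen, the microglial sum lay below its pre-SE range and 2 of its markers were called lower. Endothelial markers summed to 60.1 and 67.6 CPM before SE and 114.7 and 177.7 at 6 h, with 1 of 6 called higher. Markers of blood monocytes and macrophages, of which 2 of 6 were in the table, summed to 0.4 and 0.8 CPM before SE and 7.7 and 7.4 at 2 days, and both were called higher. The defining marker *Ccr2* was not analysed here. The neutrophil list was represented by *S100a8* and *S100a9* alone, which reached at most 5.7 CPM in sum. Markers of fibroblasts and mural cells summed to 78.6 and 164.2 CPM before SE and 163.5 and 154.8 at 2 days. The part of each of these cell types in the annexin and S100 results was not tested.

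Across the 10 libraries, which share groups and therefore their steps, *S100a6* was most like *Tyrobp* (Pearson r = 0.991 over 10 libraries) and *S100a4* most like *Tspo* (r = 0.99), among 14220 genes compared. *Sfpi1* was the second gene for both, with r = 0.985 and 0.986. The likest genes were *Ehd4* for *Anxa2* (r = 0.98), *Xdh* for *Anxa4* (r = 0.948), *Ybx1* for *Anxa5* (r = 0.979) and *U2af1* for *Anxa1* (r = 0.938). *Gm7665* headed the list for both *Anxa3* (r = 0.987) and *S100a11* (r = 0.99). For the genes that did not pass the test after SE, they were *Ube2a* for *Anxa7* (r = 0.969) and *Maoa* for *S100a1* (r = 0.969).

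The next question was whether LEV changed these levels. At 6 h, *Anxa2* was at 24.52 and 26.75 CPM in SE + LEV 6 h mice, below both SE 6 h mice (40.22 and 53.44) and well over the pre-SE level. Its logFC against SE 6 h mice was −0.85 (95% interval −2.05 to 0.34, limma adjusted p = 1.0), which did not pass the test. *S100a11*, at 0.56 and 1.23 CPM with LEV, was also below both SE 6 h mice (logFC −1.04, 95% interval −3.08 to 0.99). *Anxa4* went the other way, at 5.88 and 4.27 CPM with LEV, above both SE 6 h mice (logFC 0.86, 95% interval 0.01 to 1.7, unadjusted p = 0.047, limma adjusted p = 1.0). The other 7 genes overlapped between the groups, from *Anxa3* at 8.81 and 12.81 CPM with LEV to *S100a6* at 45.32 and 100.37. Among all genes tested, 16.1% lay above and 13.4% below in both mice. The test called 0 of the 10, where 0.0126% of all genes were called lower and 0.0% higher. At an unadjusted p under 0.05, 1 of the 10 was higher and 0 were lower, where 1.16% and 3.42% of all genes were.

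At 2 days, *S100a6* was at 855.13 and 844.83 CPM in SE + LEV 2 days mice, both above the SE 2 days mice, with a logFC of 0.58 (95% interval −0.47 to 1.63). *S100a4* was at 134.12 and 70.81 CPM, overlapping the SE 2 days mice (logFC 0.31, 95% interval −0.93 to 1.55). *Anxa1*, at 1.21 and 0.82 CPM, was below both SE 2 days mice and had the lowest estimate of the 10 (logFC −1.12, 95% interval −2.26 to 0.03, limma adjusted p = 1.0). *Anxa4*, at 8.09 and 6.37 CPM, was also below both (logFC −0.44, 95% interval −1.29 to 0.41). All 6 annexin estimates were below 0, with a median of −0.48 beside 0.04 over all genes, and 3 of 4 S100 estimates were above 0. Of all genes tested, 44.6% had an estimate below 0 and 55.4% above. Both LEV mice lay above in 1 of the 10 genes and below in 2, as did 15.2% and 12.2% of all genes. The test called 0 of the 10 and 0.0% of all genes in each direction, and at an unadjusted p under 0.05 it gave 0 of the 10, where 1.31% of all genes were higher and 1.39% lower.

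**Figure D4:**
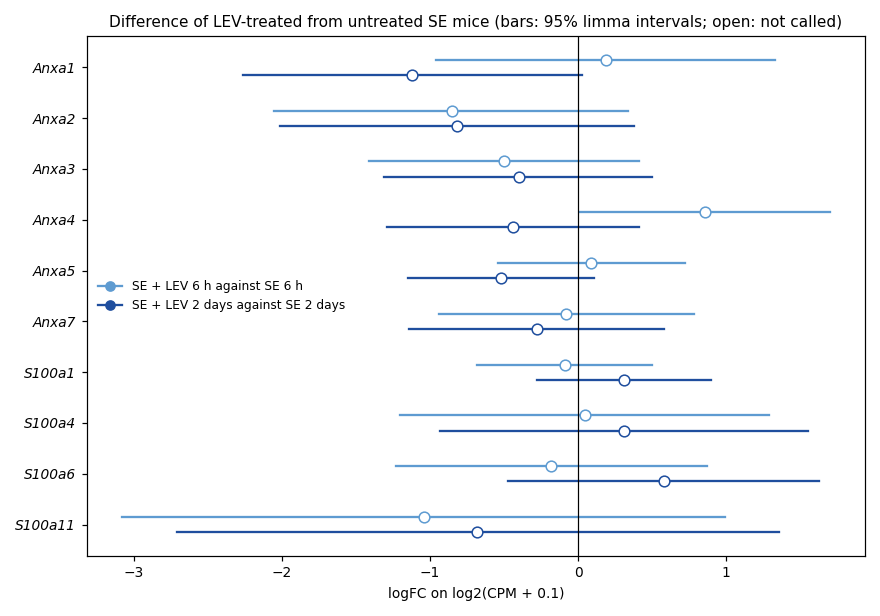
logFC of LEV-treated against untreated SE mice at 6 h (light blue) and 2 days (dark blue) for the 10 genes; bars are 95% limma intervals and open points were not called. No point is filled, and all bars but that of *Anxa4* at 6 h, from 0.01 to 1.7, cross 0.

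The remaining annexin values with LEV at 2 days rested on which mouse was read. *Anxa2* was at 75.05 and 21.89 CPM in the 2 SE + LEV 2 days mice, *Anxa3* at 38.86 and 16.43, *Anxa5* at 92.61 and 60.09, and *Anxa7* at 35.94 and 23.9. *S100a11* was at 12.02 and 2.42 CPM, and the partner *S100a10* at 230.55 and 70.6. In replicate 2, 9 of the 10 genes were lower than in replicate 1, with a median difference of −0.6 on the log2 scale, while 44.7% of all genes were lower and their median difference was 0.07. *S100a1*, at 91.44 and 130.32 CPM, was the exception, and *S100a6* differed by only −0.02. Without replicate 2 the logFC of LEV at 2 days was 0.07 for *Anxa2* in place of −0.82, 0.21 for *Anxa3* in place of −0.4, 0.01 for *Anxa7* in place of −0.28 and 0.46 for *S100a11* in place of −0.68. The microglial markers summed to 1135.3 CPM in replicate 1 and 901.4 in replicate 2, the astrocyte markers to 4411.1 and 4013.8, and the choroid plexus markers to 1489.6 and 20.6, and their part in this difference was not tested. In SE 2 days mice, 8 of the 10 genes were higher in replicate 2.

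**Figure D5:**
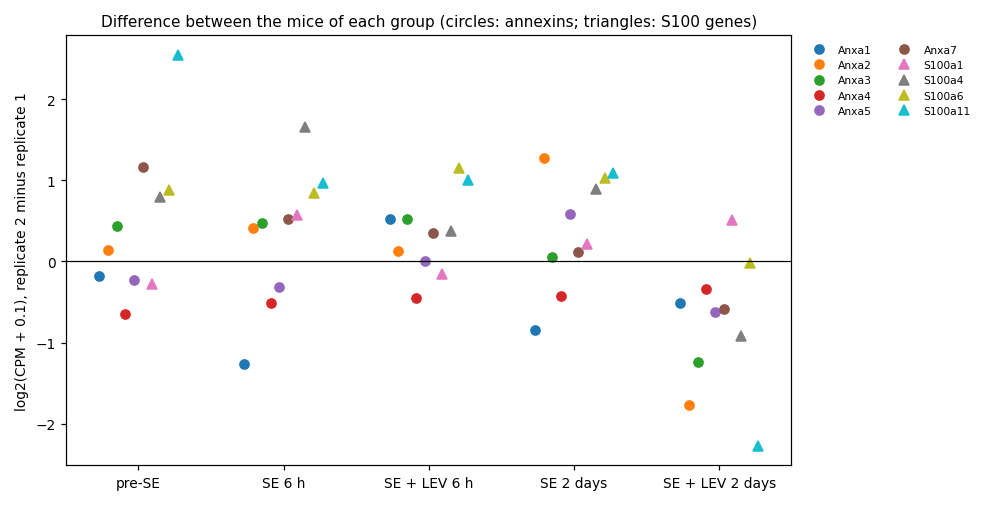
Difference in log2(CPM + 0.1) between replicate 2 and replicate 1 of each group for the 10 genes, with circles for annexins and triangles for S100 genes. In SE + LEV 2 days mice 9 points lie below 0, from −0.02 for *S100a6* to −2.27 for *S100a11*, and in SE 2 days mice 8 lie above 0.

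Both LEV groups were also set against pre-SE mice, which the comparisons above share as controls. At 6 h with LEV, 0 of the 10 genes were called, where 0.315% of all genes were called higher. At an unadjusted limma p under 0.05, 5 of the 10 were higher, where 5.53% of all genes were. *Anxa2* had a logFC of 2.26 (± 0.54, limma adjusted p = 0.15). At 2 days with LEV, 6 of the 10 were called higher, where 2.83% of all genes were. They were *S100a4* (logFC 5.26, limma adjusted p = 0.002), *S100a6* (4.67, limma adjusted p = 0.0017), *S100a11* (4.14, limma adjusted p = 0.041), *Anxa2* (2.92, limma adjusted p = 0.016), *Anxa3* (2.28, limma adjusted p = 0.014) and *Anxa4* (1.78, limma adjusted p = 0.035). By logFC, *S100a4* stood 16th and *S100a6* 31st of all genes tested. *Anxa5* had a logFC of 1.1 (limma adjusted p = 0.08) and *Anxa1* of 1.2 (limma adjusted p = 0.42). The calls of *S100a4* and *S100a6* held under all 20 alternatives run. That of *S100a11* was lost under 15 of them. When the 2 groups were fitted alone, only 2 of the 10 genes were called. In that fit 62 of all 15653 genes were called higher, in place of 448 of 15851. Calls of members were also lost without either pre-SE mouse or without SE + LEV 2 days replicate 1, fits in which fewer of all genes were called higher too.

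Ordered by mean CPM, pre-SE mice were lowest for 8 of the genes, the exceptions being *Anxa7* and *S100a1*, which were lowest in SE + LEV 6 h mice. SE 2 days mice were highest for the 6 annexins and *S100a11*, and SE + LEV 2 days mice for *S100a1*, *S100a4* and *S100a6*. Where neighbouring places in these orders were held by SE and SE + LEV mice of 1 time, no difference passed the limma test. The difference of the LEV effect between 2 days and 6 h was called for 0 of the 10 genes and 0.0% of all genes in each direction. At an unadjusted p under 0.05 it was lower for 1 of the 10, where 0.795% of all genes were, and higher for 0, where 1.58% were.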

How the data were processed

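CAGE tags from whole hippocampi of 10 mice were used, with 2 mice per group. Per the study's methods, the authors aligned tags to the mm9 genome with BWA (version 0.7.17) and the remainder with HISAT2 (version 2.0.5), clustered them with the RECLU pipeline, discarded clusters under 0.1 CPM, clusters with poor agreement between replicates and long clusters, and used edgeR (version 3.22.5) for their own tests. The deposited values are CPM, with 1 value per gene and mouse. How clusters were summed to genes, and whether strand was used in that step, is not given in the sources used here, and no sequencing batch is named there. All 15900 identifiers (100.0%) were found in the mm9 annotation, and 0 value columns went unused.

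From these values, log2(CPM + 0.1) was tested with limma 3.58.1 in R 4.3.3, in a single two-sided fit of all 10 libraries with the 5 group means and a mean-variance trend. P-values were adjusted by Benjamini-Hochberg over the 15851 genes that reached 0.1 CPM in 2 or more libraries. Library totals were recovered from the spacing of the CPM values, which are multiples of the value of 1 tag, and were used only for depth, tag numbers and the limit of 3 tags. In every library 100.0% of values were whole tags within rounding, where rounding alone would make 10.5% to 51.7% whole, and as the values carry few decimals these tag numbers are estimates. That step recovered 10 of 10 totals in simulated data. Counts for SE 6 h against pre-SE mice were simulated with the same dispersion for every gene, 15806 genes and 199 true changes. There limma found 32.8% of the genes with a true logFC of 1 in size, 91% with 2 and 100% with 3. It made 14 false calls, and 0 calls in a separate simulation with no change. Mates differed by a median of 0.41 to 0.72 on the log2 scale for the members and 0.31 to 0.38 for all genes. These shares therefore need not hold for the members. Counting limits cover counting error only.

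The members and lists were chosen with earlier results of these data known, and no list was tested as a set. All 10 members were named. Of the other family genes and partners, those called in either SE group against pre-SE mice were named, with the known partners of members, and for each member the 2 genes most like it (Pearson r) were found. *S100b*, *S100a8*, *S100a9*, *S100a13*, *S100a16* and the astrocyte markers were named after their values were seen. Promoters came from a RefSeq table of GRCm38.p6, which has no entry for *Anxa3*, and were placed in mm9 by exact match. Alternatives were pseudocounts of 0.01, 0.5 and 1 CPM, no filter, a filter of 1 CPM in 2 libraries, a fit without the trend, the replicate number as a block, rescaling by the median of ratios, the 2 groups compared fitted alone, and each mouse left out in turn. A block with crossed numbers was added after the data were seen. Python 3.11.15, pandas 2.3.3 and matplotlib 3.10.9 made tables and figures.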

Additional observations from a re-analysis of the deposited data

Results flagged for a closer look

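*Anxa4* was flagged from its values, as the 1 gene of the 10 whose SE + LEV and SE mice did not overlap at either time, in opposite directions. At 6 h both SE + LEV mice (5.88 and 4.27 CPM) were above both SE mice (3.27 and 2.26 CPM), as were 16.1% of all genes tested. At 2 days both SE + LEV mice (8.09 and 6.37 CPM) were below both SE mice (11.32 and 8.45 CPM), as were 12.2% of all genes. The share of all genes with both was not counted. The difference of the LEV effects was −1.3 on the log2 scale (± 0.54 as standard error, unadjusted p = 0.036, limma adjusted p = 1.0), which did not pass the test across all genes. It ranged from −1.56 to −1.04 with each mouse left out in turn.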

How the results depend on the processing

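With pseudocounts of 0.01, 0.5 and 1 CPM, without the filter, with a filter of 1 CPM, with median-of-ratios rescaling, without the mean-variance trend and with replicate numbers as a block, every count of members called was within 1.5 times the reported one. When the 2 groups compared were fitted alone, 1 gene was called in SE + LEV 6 h mice against pre-SE mice (0 as reported) and 2 in SE + LEV 2 days mice (6 as reported), a fit with fewer libraries. Of all genes, 47 were then called higher in SE + LEV 6 h mice (50 as reported) and 62 in SE + LEV 2 days mice (448 as reported). With each mouse left out in turn, the number of genes called was 0 to 2 in SE 6 h and 4 to 8 in SE 2 days mice against pre-SE mice, 0 to 4 from 6 h to 2 days, 0 to 1 in SE + LEV 6 h and 2 to 6 in SE + LEV 2 days mice against pre-SE mice, and 0 for LEV against SE at both times and for the difference of LEV effects. Leaving out a mouse leaves its group with 1 mouse, which is then assumed to vary like the other groups. In the comparisons with pre-SE mice and from 6 h to 2 days, leaving out a mouse of a group compared also lowered the number of all genes called higher. The exception was SE + LEV 2 days replicate 2, without which it rose. Of all values compared with the reported ones over these alternatives, 1432 kept their direction and call, 51 lost a call, 9 gained one and 48 turned in sign. Median-of-ratios rescaling turned *S100a1* from 6 h to 2 days (−0.02), *S100a4* with LEV at 6 h (−0.01) and *S100a1* in SE + LEV 6 h against pre-SE mice (0.05). The other turns came with a mouse left out, and the logFC ranges of those genes over the mice left out follow. In SE 6 h against pre-SE it ran for *Anxa7* from −0.97 to 0.18, *S100a1* from −0.21 to 0.36. In SE 2 days against pre-SE it ran for *Anxa7* from −0.17 to 0.98. In SE 2 days against SE 6 h it ran for *Anxa1* from -5.1e-05 to 1.27, *Anxa2* from −0.02 to 1.26, *S100a1* from −0.2 to 0.36. In SE + LEV 6 h against SE 6 h it ran for *Anxa1* from −0.45 to 0.82, *Anxa5* from −0.07 to 0.24, *Anxa7* from −0.35 to 0.19, *S100a1* from −0.37 to 0.19, *S100a4* from −0.78 to 0.88, *S100a6* from −0.75 to 0.39. In SE + LEV 2 days against SE 2 days it ran for *Anxa2* from −1.7 to 0.07, *Anxa3* from −1.02 to 0.21, *Anxa7* from −0.58 to 0.01, *S100a4* from −0.15 to 0.77, *S100a11* from −1.81 to 0.46. In SE + LEV 6 h against pre-SE it ran for *Anxa7* from −1.06 to 0.1, *S100a1* from −0.16 to 0.13. In SE + LEV 2 days against pre-SE it ran for *Anxa7* from −0.46 to 0.7. In the difference of LEV effects it ran for *Anxa2* from −0.85 to 0.92, *Anxa3* from −0.52 to 0.72, *Anxa7* from −0.49 to 0.09, *S100a4* from −0.57 to 1.09, *S100a11* from −0.77 to 1.5. The cause was not tested.

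Same-numbered mice are different animals that share only a number. The deviations of same-numbered mice correlated across genes at 0.34 between SE 6 h and pre-SE, 0.057 between SE 2 days and pre-SE, −0.019 between SE 2 days and SE 6 h, 0.15 between SE + LEV 6 h and SE 6 h, −0.18 between SE + LEV 2 days and SE 2 days, 0.093 between SE + LEV 6 h and pre-SE and −0.44 between SE + LEV 2 days and pre-SE. With the replicate number as a block, 1, 8, 3, 0, 0, 0 and 5 members were called in these comparisons. With the numbers crossed in SE + LEV 2 days mice, a pairing added after the data were seen, 0 members were called against SE 2 days and 6 against pre-SE mice. The planned tests on tag counts were not run, because a check stricter than rounding did not accept the recovered tags as whole in every library. Depth limits *S100a11* and *Anxa1* most, which had 1 to 34 and 12 to 18 tags in pre-SE mice.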
